A study of Mus musculus with 6 samples.

Results

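*Scart2* and 8 genes used to recognize γδ T cells or the subset of them that makes interleukin-17 (*Trdc*, *Trgc1*, *Trgc2*, *Trgc4*, *Sox13*, *Blk*, *Il23r* and *Maf*) were examined in peripheral CD8+ T cells from WT and BIT mice. They were taken by symbol and are 9 of the 78275 rows of the gene table. The set was chosen with the BIT against WT results of these libraries known, and *Scart2* was chosen by its difference, so the BIT minus WT values of the 9 genes are given as descriptions without a test. *Scart2* was higher in every BIT library than in any WT library, by 2.77-fold in the group means. The γδ T cell receptor constant genes overlapped between genotypes, for *Trdc*, *Trgc2* and *Trgc4* through WT replicate 3 alone. Without that library, *Trdc* was lower and *Trgc2* and *Trgc4* were higher in all BIT libraries. That comparison was made after seeing the data and leaves fewer WT than BIT libraries. The share of all genes that would not overlap in it was not taken. *Maf* was lower in every BIT library, and *Sox13* and *Il23r* were close to undetected.

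BIT mice are C57BL/6 animals made homozygous by genome editing for a *Psmb8* locus that carries β5t-encoding *Psmb11* inserted at the start of exon 1, so that cells that would make the immunoproteasome subunit β5i make the thymoproteasome subunit β5t. WT mice carry the unedited locus. CD4-CD8+ TCRβhigh cells of lymph nodes were sorted from 3 WT and 3 BIT mice, labelled male and 9 to 10 weeks old, and total RNA depleted of ribosomal RNA was sequenced as 1 library per mouse. The study made several independently edited lines and used a single line unless it stated otherwise, and the labels name no line for these libraries.

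The libraries held 37467678 to 52922675 counts, so that 3 counts correspond to 0.0567 to 0.0801 CPM (counts scaled to a library total of 1e6). *Psmb8* had 8024 to 10790 counts in WT and 59 to 73 in BIT libraries, and *Psmb11* had 0 in WT and 1226 to 1926 in BIT libraries, as the labels state. WT replicate 3 stood apart. It had 66626 *Xist* counts against 2 to 125 elsewhere and no count from 4 Y-linked genes that summed to 8474 to 12329 in the other 5 libraries, which goes against its label of male. On the first principal component, which held 34.4% of the variance, WT replicate 3 lay at 54.6 and BIT replicate 3 at 28.6, with the other 4 libraries between −36.5 and −3.31. The values of the set that turn on WT replicate 3 are therefore also given without it.

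γδ T cells carry an antigen receptor built from a γ and a δ chain instead of the α and β chains of conventional CD8+ T cells, and many of them settle in skin, gut, lung and other barrier tissues. In mice they divide early into cells that produce interferon-γ and cells that produce interleukin-17. The second kind relies on the transcription factors encoded by *Sox13* and *Maf*, on the Src family kinase encoded by *Blk* and on the interleukin-23 receptor, and *Scart1* and *Scart2*, which encode scavenger receptor cysteine-rich (SRCR) membrane proteins, are among its surface markers. The sort required a high level of TCRβ, which γδ T cells lack, and it did not use any of the 9 genes.

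The γ constant genes are near copies of each other, and this bears on how far their counts can be told apart. The first 120 bases of the first exon of each are shown 5′ to 3′ on the coding strand, from the GRCm39 mouse genome with Gencode M39 exons, with capitals where a base differs from *Trgc1*.
Trgc1, chr13:19398273-19398392, plus strand: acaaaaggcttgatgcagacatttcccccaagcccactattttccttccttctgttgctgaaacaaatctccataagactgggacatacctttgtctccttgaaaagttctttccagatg
Trgc2, chr13:19491602-19491721, minus strand: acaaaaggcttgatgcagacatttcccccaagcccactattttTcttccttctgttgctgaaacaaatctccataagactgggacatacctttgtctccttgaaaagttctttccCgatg
Trgc3, chr13:19445055-19445174, plus strand: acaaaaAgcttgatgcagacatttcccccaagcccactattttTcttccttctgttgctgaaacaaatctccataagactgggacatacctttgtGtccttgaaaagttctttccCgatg
Trgc4, chr13:19528728-19528847, plus strand: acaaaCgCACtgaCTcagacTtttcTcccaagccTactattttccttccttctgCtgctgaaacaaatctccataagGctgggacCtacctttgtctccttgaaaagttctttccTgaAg
Over the whole exon of 330 bases, *Trgc2* was identical to *Trgc1* at 321 positions (97.27%), *Trgc3* at 317 (96.06%) and *Trgc4* at 271 (82.12%). Reads from *Trgc1*, *Trgc2* and *Trgc3* can therefore be shared out between these genes by the counting, whereas *Trgc4* is more distinct.

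**Figure D1:**
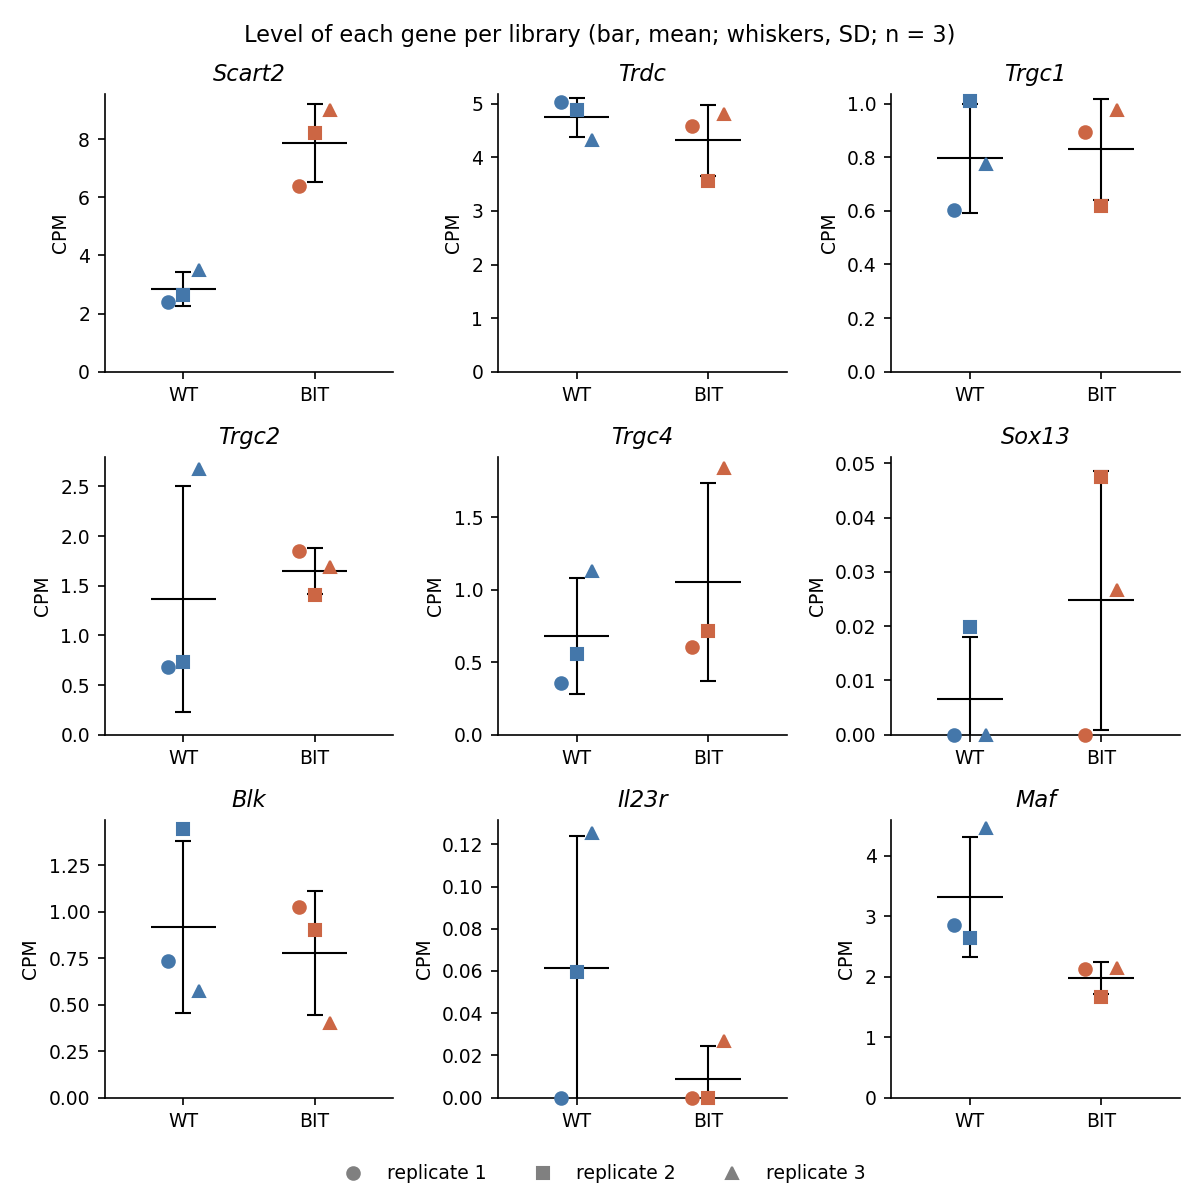
Level of each of the 9 genes in CPM on a linear axis from 0, by genotype, with 1 point per library (shape, replicate number), a bar at the group mean and whiskers of 1 SD (n = 3 mice per group, whiskers below 0 not drawn). *Scart2* spans 2.40 to 3.50 CPM in WT and 6.39 to 9.02 CPM in BIT libraries, *Maf* lies lower in BIT than in WT libraries, and the other panels overlap between genotypes.

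Differences between BIT and WT were estimated with limma-voom after quantile normalization as log2 fold changes, with a gene called at a Benjamini-Hochberg adjusted p under 0.05. Of 16105 genes tested, 22 (0.137%) were called, 13 (0.0807%) higher and 9 (0.0559%) lower in BIT mice. That count was 1 without WT replicate 1, 4 without WT replicate 2, 37 without WT replicate 3, 9 without BIT replicate 1, 2 without BIT replicate 2 and 11 without BIT replicate 3. Of the 9 genes, 7 passed the filter on low counts and 2, *Sox13* and *Il23r*, did not. *Scart2* was the 1 called among the 7, which its choice by this contrast fixed. The CPM of the 2 genotypes did not overlap for 2 of the 7, *Scart2* and *Maf*, beside 12.8% of all genes tested.

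*Scart2* (chr7:139827197-139880649, plus strand, 13 exons) encodes an SRCR domain membrane protein found on interleukin-17-producing γδ T cells. It had 127, 133 and 140 counts in WT replicates 1 to 3 and 286, 346 and 338 in BIT replicates 1 to 3. These were 2.40, 2.63 and 3.50 CPM in WT mice and 6.39, 8.23 and 9.02 CPM in BIT mice. The lowest BIT library thus lay above the highest WT library, which was WT replicate 3. The group means were 2.84 ± 0.583 CPM in WT and 7.88 ± 1.35 CPM in BIT mice (SD, n = 3), and the log2 fold change was 1.53 ± 0.17 (SE). It was 1.57 without WT replicate 3 and between 1.46 and 1.59 when any 1 mouse was left out.

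The expression of *Scart2* was low beside that of the genes that define the sorted cells. Per kilobase of exon, *Scart2* amounted to 0.187%, 0.223% and 0.306% of *Cd8a*, which encodes the CD8 α chain, in WT libraries. In BIT libraries these shares were 0.546%, 0.704% and 0.769%. In bulk RNA, a larger number of cells with *Scart2* RNA and more *Scart2* RNA per cell cannot be told apart.

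The nearest protein-coding gene before *Scart2* is *Scart1* (chr7:139798180-139811058, plus strand, also known as *Cd163l1*), which ends 16138 bases away and encodes a related SRCR receptor of the same γδ T cell subset. *Scart1* had 132, 109 and 159 counts in WT and 187, 300 and 242 in BIT libraries, or 2.49, 2.16 and 3.98 CPM against 4.18, 7.13 and 6.46 CPM. All 3 BIT libraries were above all 3 WT libraries, with BIT replicate 1 just above WT replicate 3. The log2 fold change of *Scart1* was 1.11 ± 0.24 (SE) and did not pass the test over all genes (limma-voom adjusted p = 0.269). When any 1 mouse was left out, the adjusted p of *Scart1* ranged from 0.172 to 0.999, and DESeq2 gave 0.0236. The difference in *Scart1* was therefore called by 1 of the methods tried and not by limma-voom.

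*Scart1* and *Scart2* summed to 5.72 ± 1.53 CPM in WT and 13.8 ± 2.80 CPM in BIT mice (SD, n = 3). The balance between these neighbors also differed among libraries. Per kilobase of exon, *Scart2* was 67.0%, 84.9% and 61.3% of *Scart1* in WT libraries and 106%, 80.3% and 97.2% in BIT libraries, so that the ranges overlapped. The other 5 of the 6 nearest genes gave little RNA. *Or6b13*, an olfactory receptor gene 41319 bases before *Scart2*, had 2, 5 and 2 counts in WT and 11, 5 and 10 in BIT libraries. *Or13a19* and the pseudogene *Gm6314* had at most 2 counts in any library, *Or6f2* and *Or12j2* had 0 in all 6, and none of these 5 was tested.

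The 250 bases before the annotated start of each *Scart* gene are shown because both neighbors had higher values in BIT libraries (GRCm39, plus strand, 5′ to 3′). Capitals mark matches, on either strand, to 5 short motifs searched, the core TGCTGA bound by Maf factors, the nuclear receptor core AGGTCA, the T-box core AGGTGT, the Runx site TGTGGT and the HMG box site ACAAAG.
Scart2, chr7:139826947-139827196: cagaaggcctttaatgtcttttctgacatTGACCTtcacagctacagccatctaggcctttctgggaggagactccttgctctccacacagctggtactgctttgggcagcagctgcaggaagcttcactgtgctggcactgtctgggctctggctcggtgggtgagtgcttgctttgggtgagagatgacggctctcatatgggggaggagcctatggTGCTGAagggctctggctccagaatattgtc
Scart1, chr7:139797930-139798179: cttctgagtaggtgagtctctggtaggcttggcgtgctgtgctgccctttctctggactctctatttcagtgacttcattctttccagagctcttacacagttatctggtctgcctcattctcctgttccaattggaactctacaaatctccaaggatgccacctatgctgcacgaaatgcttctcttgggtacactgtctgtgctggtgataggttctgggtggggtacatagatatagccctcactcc
The *Scart2* window held TGCTGA on the gene's strand, with its first base at −31 from the start, and AGGTCA on the opposite strand at −221. The start used is the outermost annotated base of the gene. The canonical transcript of *Scart2* in the annotation starts further in, at chr7:139827294, and the bases between were not searched. The *Scart1* window held none of the 5. Windows with TGCTGA made up 15.4% of 21770 protein-coding genes, those with AGGTCA 13.9%, AGGTGT 13.2%, TGTGGT 13.8% and ACAAAG 17.1%, so matches of these kinds are common, and the 2 in the *Scart2* window did not overlap each other.

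The genes whose pattern over the 6 libraries was most like that of *Scart2* were found by the mean absolute difference of log2 CPM centred on each gene's mean. They were *Rln3*, which encodes the hormone relaxin 3, at 0.0861, *Stc2*, which encodes the secreted glycoprotein stanniocalcin 2, at 0.134, *Gpr15*, a homing receptor of T cells for the colon, at 0.140, and the noncoding genes *Gm16299* at 0.155 and *Runx2os1* at 0.177. *Gpr15* had 71, 71 and 110 counts in WT and 179, 202 and 215 in BIT libraries, so WT replicate 3 was the highest WT library, as for *Scart2*. *Rln3* (8 to 12 counts in WT libraries and 22 to 26 in BIT libraries) and *Runx2os1* (6 to 9 and 12 to 18) were near the lower end of what was tested. These genes were picked for their likeness to *Scart2*, and their BIT minus WT values add nothing independent.

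**Figure D2:**
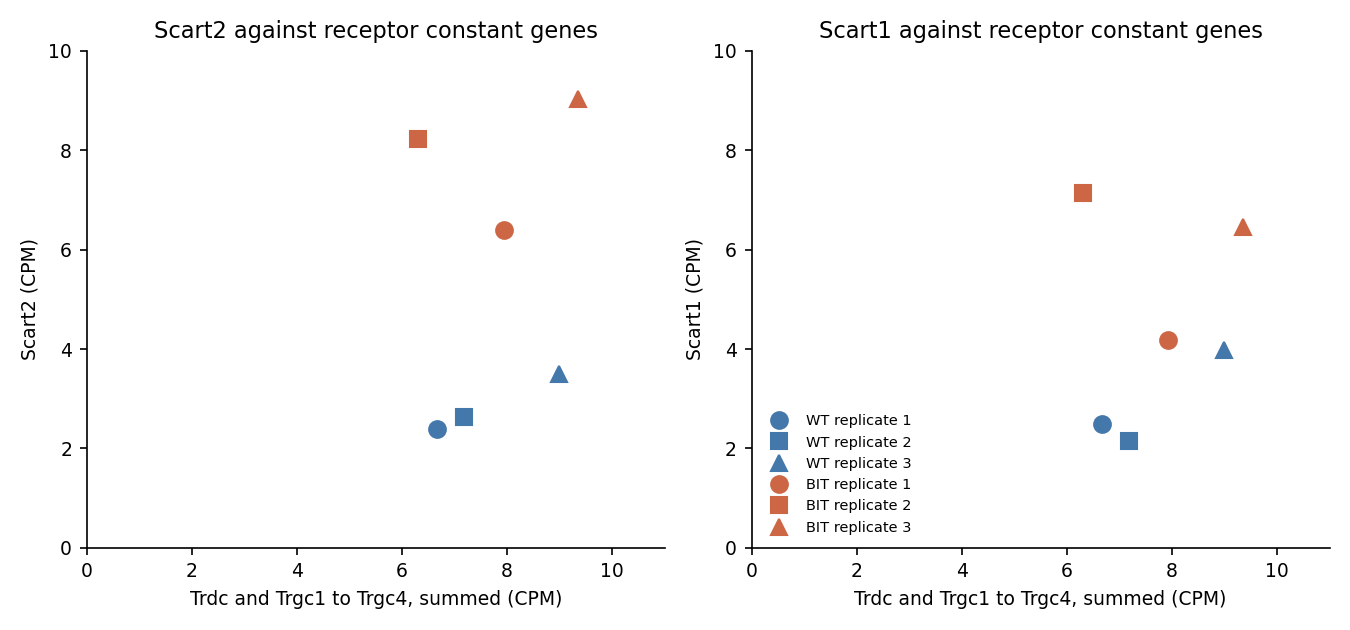
*Scart2* (left) and *Scart1* (right) in CPM against the summed CPM of *Trdc* and *Trgc1* to *Trgc4*, with 1 point per library on linear axes from 0 (color, genotype; shape, replicate number). BIT libraries lie above WT libraries on both vertical axes, whereas the summed constant genes span 6.67 to 8.99 CPM in WT and 6.30 to 9.34 CPM in BIT libraries.

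*Trdc* (chr14:54380308-54386325, plus strand) is the only constant gene of the δ chain and so the most direct transcript of a γδ receptor. It had 266, 247 and 173 counts in WT and 205, 150 and 180 in BIT libraries, or 5.03, 4.88 and 4.33 CPM against 4.58, 3.57 and 4.80 CPM. The groups overlapped, with the lowest level in BIT replicate 2 and the highest in WT replicate 1. *Trdc* averaged 4.75 ± 0.367 CPM in WT and 4.32 ± 0.660 CPM in BIT mice (SD, n = 3), with a log2 fold change of −0.10 ± 0.22 (SE). Leaving out any 1 mouse gave −0.26 to 0.0054, so the sign was not stable, and without WT replicate 3 all BIT libraries were below both WT libraries. *Scart2* and *Trdc* thus differed in pattern, with *Scart2* split by genotype and *Trdc* not.

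*Trdc* was also set against *Trac*, the constant gene of the α chain, per kilobase of exon. *Trdc* was 0.218%, 0.244% and 0.222% of *Trac* in WT libraries and 0.193%, 0.146% and 0.215% in BIT libraries, which placed all 3 BIT libraries below all 3 WT libraries by a small margin. That order depends also on *Trac*, at 505 ± 45.6 CPM in WT and 569 ± 25.4 CPM in BIT mice (SD, n = 3). In CPM alone, *Trdc* overlapped between genotypes. The constant genes of both αβ chains (*Trac*, *Trbc1* and *Trbc2*) summed to 1376 ± 138 CPM in WT and 1313 ± 53.1 CPM in BIT mice. The genes most like *Trdc* over the 6 libraries were *Krtcap2*, which encodes a subunit of the oligosaccharyltransferase complex, at 0.0277, the predicted gene *Gm56802* at 0.0313 and *Arf4*, which encodes a small GTPase of vesicle traffic, at 0.0322. *Arf4* had a log2 fold change of −0.22 ± 0.12 (SE, limma-voom adjusted p = 0.656).

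The γ constant genes were low and varied widely within genotypes. *Trgc1* (chr13:19398273-19401194, plus strand) had 32, 51 and 31 counts in WT and 40, 26 and 36.56 in BIT libraries, with a log2 fold change of 0.26 ± 0.35 (SE). The BIT to WT ratio of its mean CPM, without quantile normalization, was 1.04. *Trgc4* (chr13:19528728-19536926, plus strand) had 19, 28 and 45 counts in WT and 27, 30 and 69 in BIT libraries, with a log2 fold change of 0.83 ± 0.41. Both overlapped between genotypes, and replicate 3 was the highest library for *Trgc4* in each genotype. Without WT replicate 3, *Trgc4* was higher in all BIT than in both WT libraries and its log2 fold change was 1.07. With any 1 mouse left out, the log2 fold change ranged from 0.54 to 1.07 for *Trgc4* and from 0.07 to 0.49 for *Trgc1*, which also overlapped without WT replicate 3.

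*Trgc2* (chr13:19488819-19491721, minus strand) was decided by 1 library. It had 36, 37 and 107 counts in WT and 83, 59 and 63.44 in BIT libraries, or 0.680, 0.732 and 2.68 CPM against 1.85, 1.40 and 1.69 CPM. WT replicate 3 was above all BIT libraries, and WT replicates 1 and 2 were below all of them. The log2 fold change of *Trgc2* was 0.74 ± 0.41 (SE), and 1.19 without WT replicate 3 and 1.33 with replicates 1 and 2 alone, while DESeq2 gave 0.33.

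The counts of *Trgc1* and *Trgc2* were fractional in BIT replicate 3, as the counting program RSEM gives them where it divides reads between genes. Summed, *Trgc1* and *Trgc2* gave 1.28, 1.74 and 3.45 CPM in WT and 2.75, 2.02 and 2.67 CPM in BIT libraries, which overlapped through WT replicate 3 alone. The BIT to WT ratio of that sum was 1.15, and 1.64 without WT replicate 3. All 4 γ constant genes together gave 2.86 ± 1.59 CPM in WT and 3.54 ± 0.917 CPM in BIT mice (SD, n = 3), a ratio of 1.24. Without WT replicate 3 the WT mean was 1.97 CPM, the ratio was 1.80 and all BIT libraries were above both WT libraries. *Trgc3*, whose counts cannot be separated well from these, had 0, 0 and 3 counts in WT and 0, 0 and 1 in BIT libraries.

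Variable segments of the γ and δ loci, which were not among the 9 genes, gave a separate view of γδ receptor RNA. Their 13 rows summed to 90, 75 and 78 counts in WT and 83, 84 and 111 in BIT libraries, or 1.70, 1.48 and 1.95 CPM against 1.85, 2.00 and 2.96 CPM. The groups overlapped, at 1.71 ± 0.235 CPM in WT and 2.27 ± 0.603 CPM in BIT mice (SD, n = 3), a ratio of 1.33 (exact two-sided permutation test, p = 0.2, where 3 against 3 cannot go below 0.1). The 7 γ segments had 0.734 ± 0.319 CPM in WT and 1.27 ± 0.553 CPM in BIT mice, and the 6 δ segments had 0.978 ± 0.143 and 1.00 ± 0.207 CPM. Without WT replicate 3 the BIT to WT ratio was 1.43 for all 13 rows, with no overlap, 2.31 for the γ segments, with no overlap, and 0.960 for the δ segments, which overlapped. The 10 segments that serve both the α and δ chains, most of whose RNA can come from α chains, gave 11.1 ± 0.104 CPM in WT and 12.7 ± 0.223 CPM in BIT mice, with all BIT libraries above all WT libraries (exact two-sided permutation test, p = 0.1, the smallest possible).

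Of the 22 γδ receptor segments listed besides the 9 genes, 8 had no count in any library and 3 were tested, of which none was called and all 3 had log2 fold changes above 0 (median 0.37, beside 0.012 over all genes tested). *Trgv2* had 18, 18 and 30 counts in WT and 20, 27 and 34 in BIT libraries, with a log2 fold change of 0.75 ± 0.35 (SE, limma-voom adjusted p = 0.611). *Trdv1* had 0.37 ± 0.40 (adjusted p = 0.816) and *Trdv2-2* 0.14 ± 0.41 (adjusted p = 0.940). In mean CPM, without quantile normalization, the BIT to WT ratio was 1.38 for *Trgv2*, 1.16 for *Trdv1* and 0.926 for *Trdv2-2*. By that measure *Trdv2-2* was lower in BIT mice, so a rise of all 3 depends on the normalization. All 3 overlapped between genotypes. *Trgv1*, named after its values were seen and too low to be tested, had 3, 3 and 4 counts in WT and 5, 10 and 20 in BIT libraries, and was the 1 listed segment whose CPM did not overlap between genotypes.

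*Sox13* (chr1:133310039-133352222, minus strand) encodes an SRY-box transcription factor that specifies the interleukin-17-producing γδ lineage in the thymus. It had 0, 1 and 0 counts in WT and 0, 2 and 1 in BIT libraries, all under 3 counts, and no fold change is given. The 9 genes listed as SoxD relatives and high mobility group partners were all tested and none was called, with 5 above and 4 below 0 and a median log2 fold change of 0.035. *Tcf7* and *Lef1*, which encode high mobility group factors of naive T cells, had −0.01 ± 0.10 and −0.08 ± 0.08 (SE). *Satb1*, a chromatin organizer, had 0.09 ± 0.13, *Bcl11b*, a factor of T cell identity, 0.04 ± 0.09, and *Gata3*, a zinc finger factor of T cell development, 0.13 ± 0.10. *Sox5*, a relative of *Sox13*, had 34, 27 and 11 counts in WT and 27, 23 and 30 in BIT libraries and a log2 fold change of 0.66 ± 0.48 (limma-voom adjusted p = 0.727).

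*Maf* (chr8:116409632-116434579, minus strand) encodes c-Maf, a basic leucine zipper factor required for interleukin-17-producing γδ T cells and also used by regulatory and helper CD4+ T cells and by macrophages. It had 151, 133 and 178 counts in WT and 95, 70 and 80 in BIT libraries, or 2.85, 2.63 and 4.46 CPM against 2.12, 1.66 and 2.14 CPM. All 3 BIT libraries were below all 3 WT libraries, the opposite order from *Scart2*. *Maf* averaged 3.31 ± 0.996 CPM in WT and 1.97 ± 0.268 CPM in BIT mice (SD, n = 3), with a log2 fold change of −0.61 ± 0.23 (SE), −0.53 without WT replicate 3 and −0.76 to −0.53 with any 1 mouse left out. The highest *Maf* level was in WT replicate 3, which also had the highest summed level of myeloid markers and of CD4 T cell and regulatory T cell markers. In that library the largest parts of these sums were *Itgax* (20.6 CPM) and *Ikzf2* (23.7 CPM).

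Among 16 partners and targets of c-Maf listed besides *Maf* itself, 13 were tested and none was called, with 4 above and 9 below 0 and a median log2 fold change of −0.10. *Ctla4*, which encodes an inhibitory receptor carried at high levels by regulatory T cells, had 115, 129 and 170 counts in WT and 42, 23 and 49 in BIT libraries, a log2 fold change of −1.57 ± 0.30 (SE, limma-voom adjusted p = 0.228). *Lag3*, another inhibitory receptor gene, had −0.74 ± 0.36 (adjusted p = 0.630). The most abundant of the list, *Bach2*, a transcriptional repressor, had 0.06 ± 0.10, and *Nfe2l2*, the regulator of antioxidant genes, had −0.09 ± 0.09. *Mafk*, a small Maf partner, had 0.16 ± 0.09 and *Batf*, an AP-1 family factor, −0.15 ± 0.11.

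*Blk* (chr14:63610285-63654587, minus strand) encodes a Src family kinase of interleukin-17-producing γδ T cells that is also a standard B cell gene. It had 39, 73 and 23 counts in WT and 46, 38 and 15 in BIT libraries, or 0.737, 1.44 and 0.576 CPM against 1.03, 0.903 and 0.400 CPM. The groups overlapped, and replicate 3 was the lowest library in each. The log2 fold change of *Blk* was −0.07 ± 0.60 (SE), with values from −0.49 to 0.49 when any 1 mouse was left out. Per kilobase of exon, *Blk* was 5.04% to 10.3% of *Cd79a*, which encodes a chain of the B cell receptor, and 0.0733% to 0.282% of *Lck*, the main Src family kinase of T cells, and both ranges were set across all 6 libraries.

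B cell RNA was present in every library. The 9 B cell markers other than *Blk* summed to 350 to 372 CPM in WT and 340 to 378 CPM in BIT libraries, most of it from *Ighm*, the μ heavy chain gene, at 309 and 312 CPM. None of the 9 was called, 1 was above and 8 below 0, and the median log2 fold change was −0.26. *Cd79a* had 341, 417 and 236 counts in WT and 242, 251 and 162 in BIT libraries, so that WT replicate 2 was the highest and BIT replicate 3 the lowest, as for *Blk*. The part of B cells in the *Blk* counts was not tested. Of 9 other Src family kinases and regulators, 7 were tested and none was called. *Lck* had a log2 fold change of 0.08 ± 0.09 (SE), *Csk*, the kinase that inhibits the family, 0.07 ± 0.10, *Fyn*, a kinase of T cell receptor signaling, 0.03 ± 0.08, and *Lyn*, a kinase of B and myeloid cells, −0.14 ± 0.20. *Yes1*, a broadly expressed family member, had 54, 39 and 63 counts in WT and 79, 113 and 117 in BIT libraries and a log2 fold change of 1.32 ± 0.28 (limma-voom adjusted p = 0.253).

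*Il23r* (chr6:67391313-67468888, minus strand) encodes the ligand-specific chain of the receptor for interleukin-23, the cytokine that sustains interleukin-17 production. It had 0, 3 and 5 counts in WT and 0, 0 and 1 in BIT libraries, and no fold change is given. Among 12 other genes of the interleukin-23 pathway, 7 were tested and none was called, with 6 above and 1 below 0. *Stat3*, the transcription factor downstream of the receptor, had 0.24 ± 0.08 (SE, limma-voom adjusted p = 0.531), *Stat4*, used by the related interleukin-12 receptor, 0.18 ± 0.07, *Jak2*, the receptor-bound kinase, 0.01 ± 0.07, *Socs3*, a feedback inhibitor, −0.17 ± 0.16, and *Il12rb1*, the shared receptor chain, 0.39 ± 0.22.

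The wider interleukin-17 programme of γδ T cells was read from 28 listed genes besides the 9. *Il17a* and *Il22*, its main cytokine genes, had 0 counts in all 6 libraries. *Il17f* had 5, 4 and 1 counts in WT and 0, 1 and 0 in BIT libraries. Of the 28 genes, 19 were tested and none was called by limma-voom, with 12 above and 7 below 0, a median log2 fold change of 0.16 and 6 at an unadjusted p under 0.05 (4 higher and 2 lower). Over all 16105 genes tested, 1380 had an unadjusted limma-voom p under 0.05, and the list was written with earlier results of these data known. DESeq2 called 3, *Scart1*, *Il7r* and *Actn2*.

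**Figure D3:**
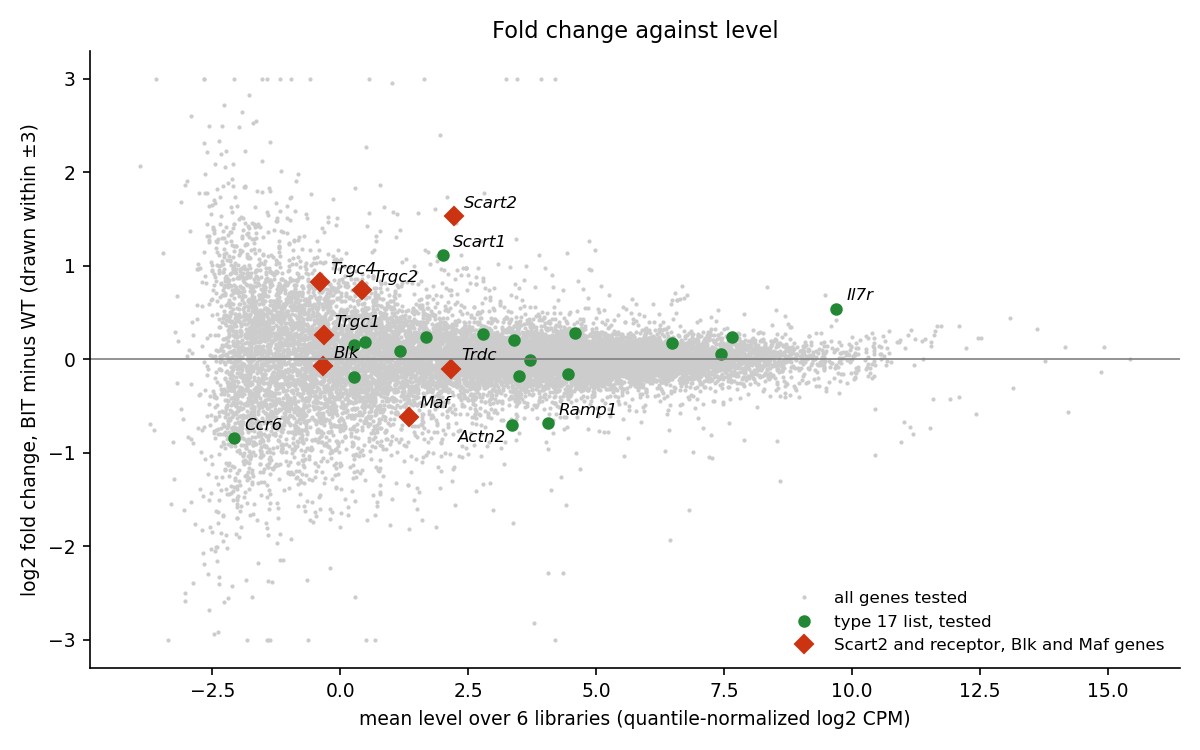
Log2 fold change (BIT minus WT) against mean quantile-normalized log2 CPM over the 6 libraries for the 16105 genes tested (grey, values past ±3 drawn at ±3), with the 19 tested genes of the interleukin-17 list in green and the 7 tested genes of the set in red. *Scart2* lies at 1.53 and *Scart1* at 1.11, while *Trdc*, at a level near that of *Scart2*, lies at −0.10.

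Several genes of that list are also expressed by αβ T cells. *Il7r*, which encodes the interleukin-7 receptor, had 36388, 29330 and 28193 counts in WT and 42945, 39502 and 39767 in BIT libraries and a log2 fold change of 0.54 ± 0.09 (SE, limma-voom adjusted p = 0.154). *Tcf12*, which encodes an E protein, had 0.06 ± 0.09 and *Cxcr6*, a chemokine receptor gene, 0.17 ± 0.16. *Ccr6*, which encodes a chemokine receptor kept by interleukin-17-producing cells, had 30, 12 and 12 counts in WT and 7, 7 and 5 in BIT libraries and −0.85 ± 0.61 (adjusted p = 0.718). *Actn2* and *Ramp1* were named after their values were seen. *Actn2*, an α-actinin gene, had 716, 666 and 505 counts in WT and 358, 338 and 296 in BIT libraries, −0.70 ± 0.13 (adjusted p = 0.217). *Ramp1*, which encodes a coreceptor for calcitonin gene-related peptide, had 1279, 1255 and 628 counts in WT and 618, 567 and 464 in BIT libraries, −0.69 ± 0.22 (adjusted p = 0.511, and 0.0307 without WT replicate 3).

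The programme of interferon-γ-producing γδ T cells, which is largely that of memory-phenotype CD8+ T cells, was listed as 14 genes with none of the 9 among them. All 14 were tested, with 8 above and 6 below 0 and a median log2 fold change of 0.12. All BIT libraries were above all WT libraries for 4 of them and below for 3, beside 12.8% of all genes tested that did not overlap in either direction. The list was written with earlier results of these data known. *Il2rb*, which encodes the interleukin-2 and interleukin-15 receptor β chain, was the 1 called. It rose from 243 ± 35.7 CPM in WT to 431 ± 33.1 CPM in BIT mice (SD, n = 3), a log2 fold change of 0.77 ± 0.09 (SE, limma-voom adjusted p = 0.0250), with all BIT above all WT libraries. The call on *Il2rb* held with WT replicate 3 left out (limma-voom adjusted p = 0.0141) and was lost when any other mouse was left out, at 0.121 for WT replicate 1, 0.113 for WT replicate 2, 0.0690 for BIT replicate 1, 0.244 for BIT replicate 2 and 0.0910 for BIT replicate 3. *Eomes*, a T-box factor of memory CD8+ T cells, had 0.69 ± 0.11 (adjusted p = 0.112) and *Tbx21*, which encodes T-bet, 0.75 ± 0.27 (adjusted p = 0.538). *Ly6c2*, a memory surface marker, had 0.46 ± 0.17 and *Cd27*, a costimulatory receptor that marks the interferon-γ-producing γδ subset, −0.08 ± 0.08. *Klrd1* (−0.42 ± 0.12), *Cd160* (−0.25 ± 0.10) and *Nr4a1* (−0.22 ± 0.12), named after their values were seen, were lower in every BIT library.

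Other members of the SRCR family were compared with *Scart2*. Of 18 listed, 9 were tested, and none was called by limma-voom, with 7 above and 2 below 0 and a median log2 fold change of 0.32. *Cd5*, which encodes an inhibitory coreceptor of T cells, had 165 ± 18.9 CPM in WT and 215 ± 13.3 CPM in BIT mice (SD, n = 3) and a log2 fold change of 0.33 ± 0.08 (SE, adjusted p = 0.349). *Cd6*, a related coreceptor gene, had 0.32 ± 0.07 (adjusted p = 0.346), and *Cd5*, *Cd6* and *Scart1* were called by DESeq2. *Prss12*, a secreted protease gene, had 0.55 ± 0.17 (adjusted p = 0.503) and *Lgals3bp*, a secreted glycoprotein gene, 0.08 ± 0.15. *Cd5l*, made by macrophages, had 47, 70 and 76 counts in WT and 26, 31 and 17 in BIT libraries and −0.99 ± 0.37 (adjusted p = 0.546).

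**Figure D4:**
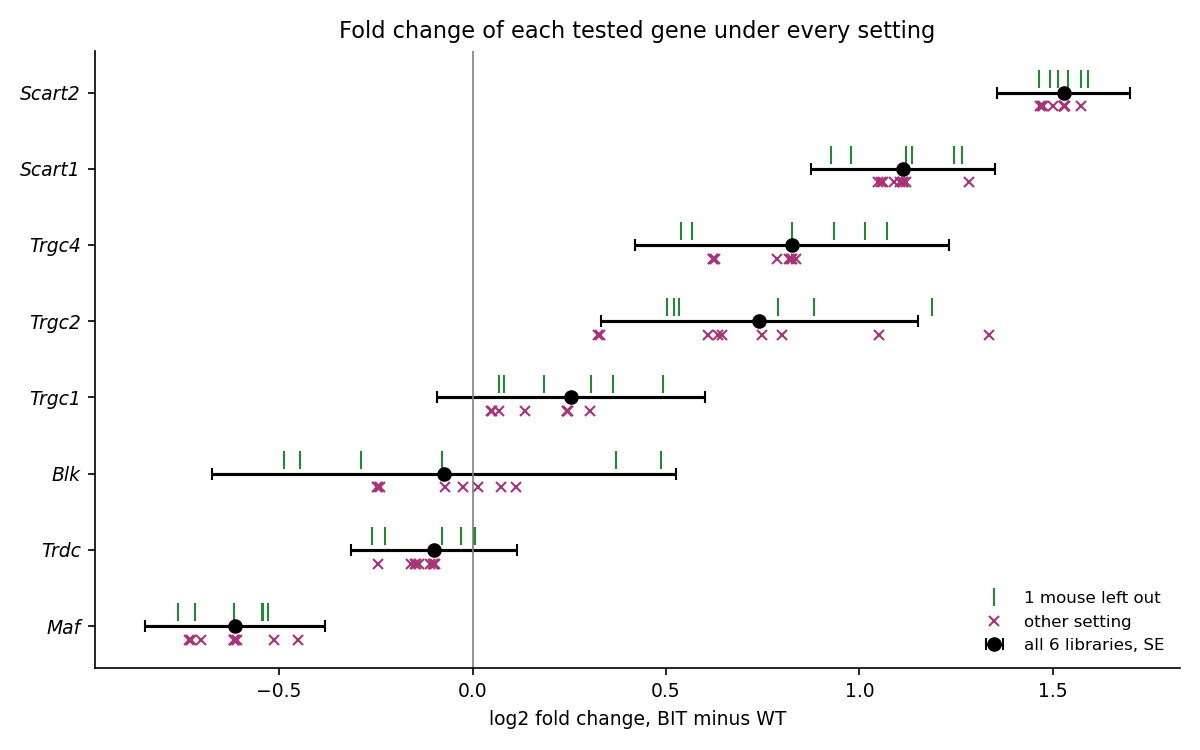
Log2 fold change (BIT minus WT) of *Scart1* and the 7 tested genes of the set, with the estimate from all 6 libraries and its SE (black), the estimates with 1 mouse left out (green ticks) and those under other settings (purple crosses). *Scart2* stays between 1.46 and 1.59 with any mouse left out, *Maf* between −0.76 and −0.53, and *Blk* and *Trdc* fall on both sides of 0.

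Across the set, the levels per kilobase of exon gave this order in WT mice, from the highest mean down, as CPM per kilobase with SD (n = 3). *Trgc2* had 1.49 ± 1.25, *Trdc* 1.23 ± 0.0951, *Trgc1* 0.862 ± 0.219, *Trgc4* 0.690 ± 0.405, *Scart2* 0.514 ± 0.105, *Maf* 0.357 ± 0.107 and *Blk* 0.328 ± 0.165, with *Il23r* and *Sox13* last. Among these 7, the intervals of 1 SD overlapped between neighbors in that order except for *Trdc* and *Trgc1*. The first place of *Trgc2* rested on WT replicate 3, without which *Trdc* (1.28) led *Trgc1* (0.873), *Trgc2* (0.772), *Trgc4* (0.463), *Scart2* (0.455), *Blk* (0.390) and *Maf* (0.296). In BIT mice *Scart2* came second at 1.42 ± 0.244, after *Trgc2* at 1.81 ± 0.251 and before *Trdc* at 1.12 ± 0.171. *Trgc4* followed at 1.07 ± 0.696, *Trgc1* at 0.897 ± 0.203, *Blk* at 0.278 ± 0.119 and *Maf* at 0.213 ± 0.0289. There the intervals of neighbors overlapped except for *Trgc1* and *Blk*. *Scart2* thus passed from below to above the mean of *Trdc* per kilobase.

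Markers of the cell types that the sort could hold were summed per library, without the 9 genes. The 11 αβ CD8 T cell markers gave 6369 to 6978 CPM in WT and 6505 to 6797 CPM in BIT libraries, with none called, so the defining markers of the labelled cell type were present. *Cd8a* (−0.04 ± 0.07, SE) and *Cd8b1* (0.12 ± 0.09), the CD8 chain genes, were close to 0, and the largest values of the list were −0.45 ± 0.14 for *Trbc1*, a β constant gene, and −0.34 ± 0.11 for *Cd3g*, a CD3 chain gene (limma-voom adjusted p = 0.503 and 0.531). The 7 γδ T cell markers outside the set gave 2.73 to 5.18 CPM in WT and 4.87 to 8.27 CPM in BIT libraries, most of it *Scart1*. Without *Scart1*, the other 6 gave 0.574 to 1.20 CPM and 0.693 to 1.52 CPM. The sum that goes with *Scart2* was therefore mainly that of its neighbor.

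Markers of other cells moved between libraries as well. The 10 myeloid markers gave 16.1 to 43.1 CPM in WT libraries, highest in WT replicate 3, and 13.8 to 19.8 CPM in BIT libraries, with 1 of 9 tested above and 8 below 0 and none called. The 7 CD4 T cell and regulatory T cell markers gave 23.6 to 37.2 CPM in WT, again highest in WT replicate 3, and 20.3 to 27.6 CPM in BIT libraries, with 5 of 7 below 0 and none called. *Foxp3*, which defines regulatory T cells, had 64, 53 and 30 counts in WT and 26, 27 and 18 in BIT libraries. In CPM, *Cd4*, *Cd40lg* and *Foxp3* were lowest in WT replicate 3 among WT libraries. *Zbtb7b*, *Ikzf2*, *Il2ra* and *Ctla4*, the rest of that list, were highest there among WT libraries. The part of myeloid and CD4+ cells in the lower *Maf* counts was not tested.

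The 11 markers of NK cells and innate lymphoid cells gave 48.1 to 64.5 CPM in WT and 61.7 to 73.3 CPM in BIT libraries, with 7 of 8 tested above 0 and none called. Most of that sum was *Gata3*, also a factor of T cell development, at a mean of 50.6 CPM in WT and 57.4 CPM in BIT mice. *Klre1*, *Klra9* and *Klra4*, lectin-like receptor genes of NK cells and memory-phenotype CD8+ T cells, had log2 fold changes of 1.04 ± 0.32, 1.13 ± 0.42 and 1.32 ± 0.65 (SE, limma-voom adjusted p = 0.508, 0.539 and 0.630). *Ncr1*, which defines NK cells, was the 1 below 0 and had 11, 21 and 11 counts in WT and 1, 14 and 7 in BIT libraries. The 8 markers of innate-like αβ T cells gave 131 to 206 CPM in WT and 122 to 166 CPM in BIT libraries, with none called, and *Zbtb16*, which encodes their master factor PLZF, had 2 to 11 counts in any library. The 8 erythroid and platelet markers varied most, from 3.13 CPM in WT replicate 3 to 61.1 CPM in BIT replicate 2, with none called.

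**Figure D5:**
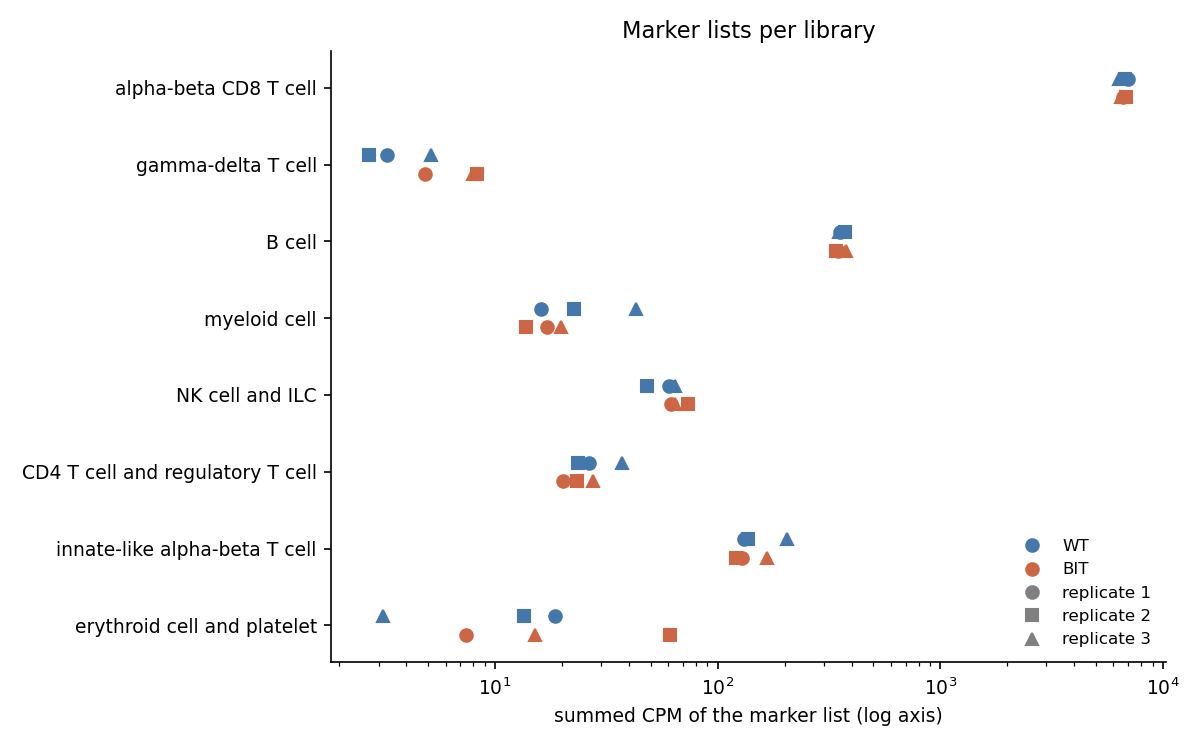
Summed CPM of each marker list per library on a log axis (color, genotype; shape, replicate number), without the 9 genes. αβ CD8 T cell markers lie between 6369 and 6978 CPM in all libraries, γδ T cell markers between 2.73 and 8.27 CPM, and the myeloid, CD4 and innate-like sums are highest in WT replicate 3.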

How the data were processed

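The authors deposited expected counts per gene made with RSEM 1.3.1 on Gencode M38. Per the labels and methods, adapters had been removed by Cutadapt 1.18 and alignment to GRCm39 was by STAR 2.7.0f. The strand setting of the counting is not given in the sources used here. RSEM splits reads between similar genes, and 84.8% of nonzero values were exactly whole (no tolerance). Counts were rounded, filtered with filterByExpr, quantile normalized and fitted with limma-voom (limma 3.58.1, R 4.3.3) on 3 WT and 3 BIT libraries, the study's own test, with Benjamini-Hochberg adjustment over all 16105 genes tested. CPM are scaled to the total of each library. Sums were compared by exact permutation tests (scipy 1.17.1). Alternatives were edgeR 4.0.16, DESeq2 1.42.0, TMM, other filters, sample weights, a replicate block, batch terms, a stricter threshold and each mouse left out. Receptor gene sums and levels per kilobase without WT replicate 3 were added after seeing the data. The share of all genes whose CPM would not overlap without WT replicate 3 was not taken, so no background stands beside those statements. Gene positions, exon lengths and sequences came from GRCm39 with Gencode M39, in which 78263 of 78275 row IDs were found. *Cd163l1* was matched to the row *Scart1* through a RefSeq synonym.

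The 9 genes and the 16 gene lists were chosen with earlier results of these data known. Named besides the 9 were, from each list, called genes, up to 4 with the highest level and 2 with the largest fold change, the 3 nearest genes on each side of *Scart2*, the 5 genes most like *Scart2* and 3 most like *Trdc*, and not every gene so picked is printed. *Actn2*, *Ramp1*, *Klrd1*, *Nr4a1*, *Cd4* and *Cd40lg* and the genes with counts near 0 that define a cell type or programme fall outside this. In data simulated on the 6 libraries for BIT against WT, with 200 genes changed, 74% of genes changed 2-fold were found (4.52% of calls false, 15797 genes) and 99.5% of those changed 4-fold (6.57%, 15806 genes). The changed genes were drawn only from genes above a minimum mean level. These shares therefore do not cover genes as low as *Trgc1*, *Trgc2*, *Trgc4*, *Blk* and the γδ receptor segments. Some results are not reported here.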

Additional observations from a re-analysis of the deposited data

How the results depend on the processing

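The number of genes called over all genes, 22, was 14 with edgeR, 125 with DESeq2, 42 with replicate 3 as a batch, 71 with replicates 1 and 2 alone, 4 at an adjusted p under 0.01 and more than 2-fold, and 1 to 37 with 1 mouse left out. In the interleukin-17 list (0 called) DESeq2 called 3, the fit without a filter 1, replicate 3 as a batch 2, replicates 1 and 2 alone 1 (*Ramp1*), and leaving out a mouse 0 to 1. In the interferon-γ list (1 called) DESeq2 and sample weights called 2 each, replicates 1 and 2 alone 3, the stricter threshold 0, and leaving out a mouse 0 to 3. DESeq2 called 1 in the c-Maf list (*Ctla4*), 3 in the SRCR list, 1 among γδ markers (*Scart1*) and 1 among CD4 and regulatory T cell markers (*Ctla4*). Among innate-like markers, *Il18rap* was the 1 called with replicates 1 and 2 alone, and leaving out a mouse gave 0 to 1. The causes were not tested. The log2 fold changes of the 7 tested genes moved by less than the spread between replicates under every alternative run, except that *Blk*, *Trgc1* and *Trgc4* had no value at a mean of at least 1 CPM. That spread includes WT replicate 3 and was wide for *Trgc2* (pooled SD of log2 values 0.64) and *Blk* (0.98). The rule therefore does not show these estimates to be stable. *Trgc2* ran from 0.32 with edgeR to 1.33 with replicates 1 and 2 alone, and *Blk* and *Trdc* changed sign. The stricter threshold was not applied to the 7 genes.

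With replicate number as a block, 21 genes were called. Libraries sharing a number had correlated deviations of 0.139, 0.0255 and 0.332 for replicates 1 to 3. BIT replicate 1 correlated best with WT replicate 2 (0.244). These deviations were taken from group means that include replicate 3, so they cannot decide whether replicates 1 and 2 share more than a number. WT replicate 3 and BIT replicate 3 each correlated best with the other, and the cause of this was not tested. The summed variable segments had log2 ratios of 0.17 to 0.53 with 1 mouse left out. Depth limits what can be said of *Sox13* and *Il23r*, and 3 mice per group and WT replicate 3 against its label limit the rest.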
